A study of Mus musculus with 7 samples.

Results

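The respiratory chain and the ATP synthase of the mouse ovary were followed through the transcripts of their subunits. Members were the protein-coding genes of the GENCODE M21 annotation whose symbol starts with mt-, Nduf, Uqcr, Atp5 or Cox4 to Cox8, or is one of Sdha, Sdhb, Sdhc and Sdhd. The rule found 107 of the 55487 gene identifiers in the count tables, 13 of them encoded by mitochondrial DNA and 94 by nuclear chromosomes. A minimum of 10 counts in every library left 96 members, of which 7 were mitochondrially and 89 nuclear encoded. The rule also takes in 8 complex I assembly factors (Ndufaf1 to Ndufaf8) and Atp5s, coupling factor B, which are not subunits.

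Poly(A) RNA of ovaries was sequenced in 3 CNTR and 4 PAMH F3 libraries, to ask how ovarian transcription differed in a lineage with traits of polycystic ovary syndrome. CNTR females were born to dams given PBS during gestation. PAMH F3 females descended over 3 generations from dams given human recombinant anti-Müllerian hormone (0.12 mg/kg daily, E16.5 to E18.5), and no later generation was treated. By the study's text all were C57BL/6J females in diestrus, and ovaries of both groups were taken from adults at postnatal day 60. Nothing in the labels says how many animals went into a library, so p-values measure the spread between these 7 samples. The labels call the injections subcutaneous, whereas the methods call them intraperitoneal. The labels give no generation for the CNTR mice, and the study's text describes them as first-generation offspring, so the lineage and the generation cannot be told apart. In RNA from whole ovary, fewer cells of a type and less RNA per cell cannot be told apart. A library held 32158174 to 35485021 counts over all genes.

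Oxidative phosphorylation passes electrons from NADH through complex I, or from succinate through complex II, to complexes III and IV, and the proton gradient this builds drives ATP synthase, also called complex V. All but complex II are mosaics of 2 genomes, with a few hydrophobic core subunits made inside the mitochondrion and the remaining subunits imported from the cytosol. The oocyte holds a very large store of mitochondrial DNA, and steroid-producing cells of the theca and the corpus luteum begin steroid synthesis on the inner mitochondrial membrane.

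Of the 6 mitochondrial transcripts with almost no counts, 5 share nearly all of their sequence with an annotated nuclear copy. The mitochondrial genome encodes 7 complex I core subunits (mt-Nd1 to mt-Nd6 and mt-Nd4l), cytochrome b of complex III (mt-Cytb), 3 core subunits of cytochrome c oxidase (mt-Co1, mt-Co2 and mt-Co3) and 2 of ATP synthase (mt-Atp6 and mt-Atp8). No read was counted in any of the 7 libraries for mt-Co2, mt-Atp6, mt-Atp8, mt-Nd3 and mt-Nd4l, which allows up to 3 counts or 0.0941 CPM (counts scaled to the library size after TMM normalization) in a library. For mt-Co3, 2 counts were found in CNTR replicate 3 and 0 in the other 6 libraries. A block of 7 annotated unprocessed pseudogenes on chromosome 1 (GRCm38, chr1:24611535-24616197, minus strand) carries copies of 7 mitochondrial genes in their mitochondrial order. The copy of mt-Co2, Gm28661, matched the gene at all 681 aligned bases, and the copies of mt-Atp6, mt-Co3, mt-Nd4l and of the first 876 bases of mt-Nd4 also had 0 differences. The copy of mt-Nd3 differed once, T3C, counted from the first base of the gene with the mitochondrial base first. The opening 90 bases of mt-Co2 (chrM:7013-7102, plus strand) and of its copy (chr1:24615476-24615565, minus strand) are shown because they are the same letter for letter. The next pair shows where the copy of mt-Co1 begins (chrM:6381-6470, plus strand, and chr1:24616108-24616197, minus strand), with the bases that differ in capitals.
mt-Co2: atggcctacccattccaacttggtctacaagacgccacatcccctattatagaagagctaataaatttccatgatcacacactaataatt
Gm28661: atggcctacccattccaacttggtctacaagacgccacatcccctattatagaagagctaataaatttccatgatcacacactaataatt
mt-Co1: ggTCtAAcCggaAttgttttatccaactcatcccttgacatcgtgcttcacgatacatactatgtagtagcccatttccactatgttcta
Gm29216: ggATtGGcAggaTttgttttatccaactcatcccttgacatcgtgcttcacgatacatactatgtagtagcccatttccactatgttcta

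All 6 differences of mt-Co1 from this copy (T1056A, C1057T, A1059G, A1060G, C1062A and A1066T) lay in the first bases of the aligned stretch, and the other bases of the 492 aligned were identical. Reads were 50 bases long and only uniquely aligned reads were counted, so a read from an identical stretch had no unique place. Of the 50-base windows of each transcript, the share also found in another annotated locus was 100% for mt-Co2, 99.9% for mt-Co3, 99.5% for mt-Atp6, 98.8% for mt-Nd4l and 98.0% for mt-Nd3. It was 62.2% for mt-Nd4 and 51.1% for mt-Co1, 8.19% for mt-Nd2 and 7.61% for mt-Nd5, and 0% for mt-Cytb, mt-Nd1 and mt-Nd6. The pseudogenes themselves held between 0 and 11 counts in a library. The exception was mt-Atp8, at 0 counts with 0% of its windows in an annotated locus. None of the 7 pseudogenes of the chromosome 1 block is a copy of mt-Atp8. The genome sequence was not used here, so an unannotated copy was not looked for. Counts of 0 for these genes were not read as absence of their RNA.

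**Figure D1:**
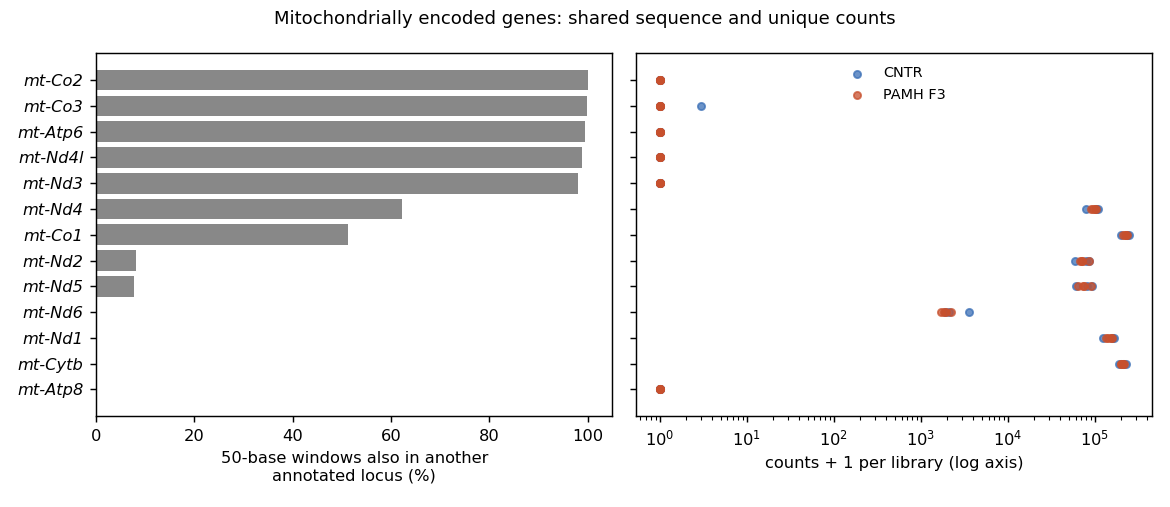
Left, share (%) of the 50-base windows of each mitochondrially encoded gene that are also found in another annotated locus. Right, counts plus 1 on a log axis, 1 point per library, blue for CNTR and red for PAMH F3. The 5 genes with 98.0% to 100% of their windows shared sit at 0 to 2 counts, as does mt-Atp8 with 0% shared, and the other 7 genes lie between 1714 and 246520 counts.

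The 7 mitochondrial transcripts that could be counted took more reads than all 89 nuclear encoded members together. They held between 2.14% and 2.81% of the gene counts of a library, beside 0.909% to 1.18% for the nuclear encoded members. Per kb of transcript, mt-Cytb was highest at 5415 CPM per kb (range over the 7 libraries 4866 to 6030), followed by mt-Nd1 at 4608 (3889 to 5271) and mt-Co1 at 4333 (3865 to 4808). These neighbours overlapped in range, although mt-Cytb was above mt-Nd1 within each of the 7 libraries and mt-Nd1 above mt-Co1 within 6. A clear step separated mt-Co1 from mt-Nd2 (2124) and mt-Nd4 (2102), whose order held in 4 of 7 libraries only. Then came mt-Nd5 at 1250 CPM per kb and mt-Nd6 at 126 (92.1 to 209), the single mitochondrial protein-coding gene encoded on the light strand. Divided instead by the number of windows not shared with another locus, mt-Co1 became the highest at 9157 CPM per 1000 windows, in each of the 7 libraries, and mt-Nd4 rose to the second place at 5771, ahead of mt-Cytb at 5658 in 5 of 7 libraries. The order of mitochondrial transcripts depended on whether the bases that could yield a unique read, or all bases, were counted.

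Summed over the 7 mitochondrially encoded members, the level was 28059, 21403 and 26890 CPM in CNTR replicates 1 to 3 and 25066, 24454, 22439 and 24906 CPM in PAMH F3 replicates 1 to 4. CNTR replicates 1 and 3 lay above every PAMH F3 library and CNTR replicate 2 lay below all of them. The nuclear encoded members summed to 9906, 11783 and 10025 CPM in CNTR and to 9138, 10022, 10720 and 9595 CPM in PAMH F3. Here CNTR replicate 2 was the highest library and the groups otherwise overlapped. The ratio of mitochondrially to nuclear encoded counts was 2.83, 1.82 and 2.68 in CNTR and 2.74, 2.44, 2.09 and 2.60 in PAMH F3. It averaged 2.44 ± 0.55 (SD, n = 3) in CNTR and 2.47 ± 0.28 (SD, n = 4) in PAMH F3, a difference smaller than the spread between samples of either group. The quotient of these means was 1.01, and it became 0.895 without CNTR replicate 2.

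**Figure D2:**
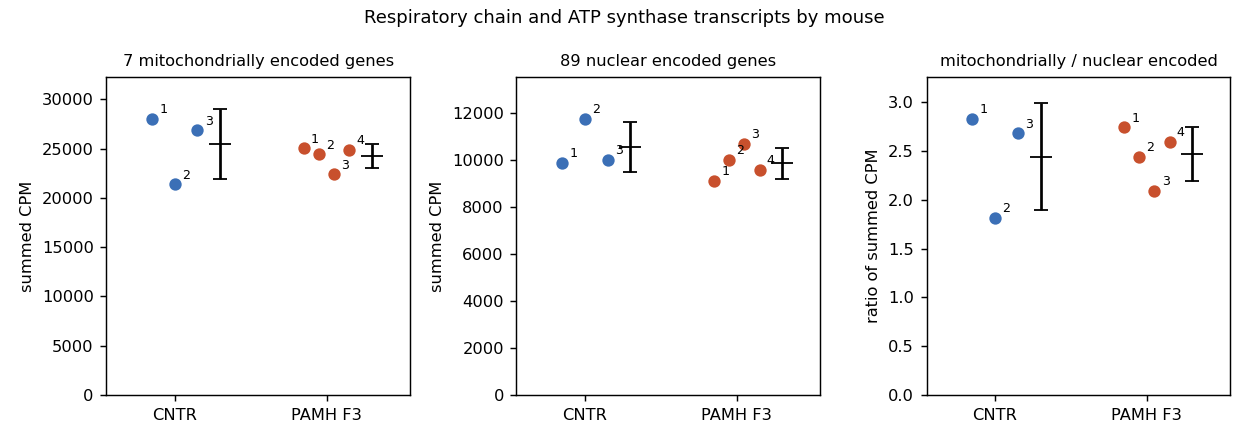
Summed CPM of the 7 mitochondrially encoded genes, of the 89 nuclear encoded genes, and their ratio. Each numbered point is 1 library and the bar gives the mean ± SD of its group. CNTR replicate 2 is lowest in the left panel at 21403 CPM, highest in the middle panel at 11783 CPM and lowest in the ratio at 1.82.

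Per kb of median transcript length, the beta and alpha subunits of ATP synthase led among the nuclear encoded members. Atp5b, the catalytic beta subunit, stood at 1433 CPM per kb (1374 to 1486 over the 7 libraries) and Atp5a1, the alpha subunit, at 1110 (1062 to 1140), ranges that did not overlap. They were followed by Sdha, the flavoprotein that oxidizes succinate, at 846 CPM per kb, by Cox4i1, the ubiquitous form of cytochrome c oxidase subunit 4, at 741 and by Cox6b1, another cytochrome c oxidase subunit, at 628. The ranges of Sdha (774 to 899) and Cox4i1 (643 to 970) overlapped, as did those of Cox4i1 and Cox6b1 (596 to 696). These levels were divided by the median transcript length. For Atp5b and Atp5a1 it was 768 and 816 bases, below their coding lengths of 1587 and 1659 bases. With the merged exon length, Cox6b1 and Cox4i1 ranked above Atp5a1 and Atp5b among the 96 members, at 7 and 8 against 9 and 10, and Sdha moved from rank 9 to rank 23. The median member of complex V had 208 CPM per kb, of complex III 180, of complex IV 173, of complex II 140, of the nuclear core of complex I 143 and of its accessory subunits 109. Assembly factors of complex I, which act on nascent subcomplexes and leave the finished enzyme, were lower, with a median of 19.6 and a range from 7.54 to 47.6 CPM per kb.

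Shared sequence also touched nuclear encoded members. Of the 89 nuclear encoded members kept, 46 had no 50-base window in another annotated locus and 14 had 50% or more of their coding windows in one. Every coding window was shared for Atp5g2, Atp5l, Ndufb4 and Cox7c, which were counted at 59 to 81, 272 to 300, 399 to 498 and 175 to 359 reads and, like Atp5g1 and Atp5g3, were picked after their values were seen, except Atp5g2. Atp5g1 and Atp5g2 encode the same mature subunit c of the rotor as Atp5g3, yet stood at 3.19 and 3.08 CPM per kb against 479 for Atp5g3. The coding sequence of Atp5g1 had 99.7% of its windows in other loci. The 14 members with shared coding sequence had a median of 35.9 CPM per kb, against 126 for the other 75. The level of such a gene per kb may understate its RNA, because only part of its reads could be placed.

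2 libraries lay furthest from the rest among the nuclear encoded members. CNTR replicate 2 was the highest of the 7 libraries for 61 of the 89 and PAMH F3 replicate 1 the lowest for 56. The excess in CNTR replicate 2 was uneven and went with base composition and with transcript length. The 44 members above the median GC content of the transcript (50.5%) were 1.31 times as high in CNTR replicate 2 as in the mean of the other CNTR libraries (median over members), against 1.07 times for the 45 at or below it. In that library the level rose by 0.41 log2 units per 10% GC among the 89 members and by 0.32 among all 18779 genes tested. The slope in the other 6 libraries lay between -0.16 and 0.08 among the members. The rank correlation with GC content over the 89 members was 0.55 in CNTR replicate 2, 0.39 in PAMH F3 replicate 3, 0.07 in CNTR replicate 3 and -0.59 in CNTR replicate 1. In the other PAMH F3 libraries it was -0.39 to -0.27. The rank correlation with median transcript length was -0.38 in CNTR replicate 2 and -0.17 in PAMH F3 replicate 3. In the other libraries it ran from 0.04 (CNTR replicate 3) to 0.33 (PAMH F3 replicate 1). These are descriptions over genes that share a library. All 7 mitochondrially encoded members, at 34.1% to 39.9% GC, fell below the lowest GC content of a nuclear member (40.2%). The shift of the mitochondrial to nuclear ratio in CNTR replicate 2 thus had the same direction by GC content. Whether base composition or transcript length accounts for the deviation of this library was not tested.

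**Figure D3:**
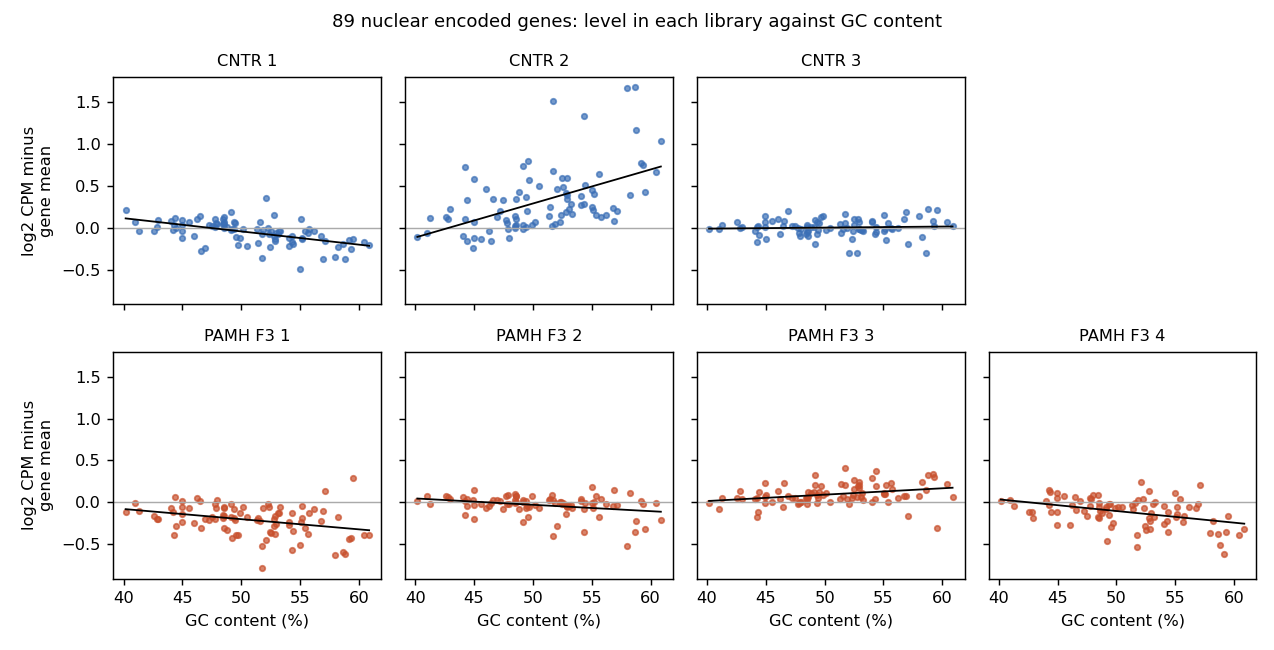
Deviation of each of the 89 nuclear encoded genes from its mean over the 7 libraries (log2 CPM, y axis) against the GC content of its transcript (%, x axis), 1 panel per library, with a fitted line. The line climbs in CNTR 2, by 0.41 log2 units per 10% GC, and less in PAMH F3 3, by 0.08. It is close to flat or falls in the other panels.

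Small subunits with short coding sequences were among the members furthest from the other libraries in CNTR replicate 2, and 3 coding sequences (GENCODE M21 transcripts, GRCm38) are printed with every CpG in capitals. Cox8a, a small subunit of cytochrome c oxidase (chr19:7215153-7217616, minus strand), and Uqcrq, a small subunit of complex III (chr11:53427922-53430831, minus strand), were among the highest there, and Cox7b (chrX:106015700-106022450, plus strand) is set beside them as a subunit of similar size that was 1.08 times as high in CNTR replicate 2 as in the mean of the other CNTR libraries. These 3 were chosen after their values were seen, so they cannot show a relation with CpG content. Whether CpG content went with the level in CNTR replicate 2 over the nuclear encoded members was not tested.
Cox8a: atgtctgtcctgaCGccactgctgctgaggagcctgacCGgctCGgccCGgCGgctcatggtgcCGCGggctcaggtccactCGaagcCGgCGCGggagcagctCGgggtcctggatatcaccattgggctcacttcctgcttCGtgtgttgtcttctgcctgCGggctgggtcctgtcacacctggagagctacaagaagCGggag
Uqcrq: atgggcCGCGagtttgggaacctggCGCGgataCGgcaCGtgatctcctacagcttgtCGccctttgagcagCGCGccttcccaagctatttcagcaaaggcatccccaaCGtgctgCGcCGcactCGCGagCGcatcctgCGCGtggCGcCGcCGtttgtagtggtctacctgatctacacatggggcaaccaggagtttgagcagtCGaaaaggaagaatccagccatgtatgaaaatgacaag
Cox7b: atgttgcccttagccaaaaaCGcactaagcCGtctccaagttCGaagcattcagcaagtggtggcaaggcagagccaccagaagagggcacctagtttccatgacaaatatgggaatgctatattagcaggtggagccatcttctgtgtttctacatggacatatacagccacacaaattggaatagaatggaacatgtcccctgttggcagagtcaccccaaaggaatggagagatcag

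The coding sequence of Cox8a has 15 CpG in 207 bases and 65.2% GC, that of Uqcrq 21 CpG in 246 bases and 57.7% GC, and that of Cox7b 3 CpG in 240 bases and 47.5% GC. Cox8a was at 22.5, 82.3 and 20.9 CPM in CNTR replicates 1 to 3 and at 17.1, 20.1, 28.7 and 19.9 CPM in PAMH F3. Uqcrq was at 33, 120 and 47.6 CPM in CNTR and at 24.5, 32.1, 56.4 and 29.4 CPM in PAMH F3. In both, CNTR replicate 2 exceeded every other library and PAMH F3 replicate 3 was the highest of its group. Cox7b was at 111, 124 and 119 CPM in CNTR and 102, 120, 118 and 104.8 CPM in PAMH F3. Over all 89 nuclear encoded members, 21 were more than 1.5 times as high in CNTR replicate 2 as in the mean of the other CNTR libraries, led by Cox8a (3.79 times), Ndufaf8 (3.37), Uqcrq (2.99), Cox5b (2.74), Ndufs7 (2.32) and Cox6a1 (2.18). Atp5s (0.797 times) and Uqcrc2, a core protein of complex III (0.847), were at the other end. The coding sequence of Ndufaf8 has 24 CpG in 258 bases, that of Atp5j2 15 in 264 and that of Cox5b 14 in 387. Atp5j2 was 1.09 times as high in CNTR replicate 2 as in the mean of the other CNTR libraries. These single genes cannot show a relation with CpG content either. Cox5b, Uqcrc2 and Atp5j2 were likewise named after their values were seen.

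No subunit transcript passed the adjusted threshold between CNTR and PAMH F3 ovaries in edgeR's test on all 7 libraries. In other fits, given below, DESeq2 called mt-Nd6 in 1 of its settings, and edgeR without CNTR replicate 1 called Cox6a1. With edgeR's quasi-likelihood test and 2 surrogate variables (estimated axes of variation between libraries other than the group), 0 of the 96 members had a Benjamini-Hochberg adjusted p of 0.05 or less, as was the case for 0 (0%) of the 18779 genes tested, whose smallest adjusted p was 0.111. At an unadjusted p under 0.05, 15 members were lower and 0 higher in PAMH F3, beside 3.89% lower and 3.75% higher among all genes tested. Without surrogate variables 3 members were lower and 0 higher, beside 2.84% and 1.11% of all genes. The 3 were Atp5j, Cox5b and Ndufaf8, of which only Atp5j was among the 15. For 1 member all PAMH F3 values exceeded all CNTR values and for 1 member all were lower, beside 1.85% and 2.4% of all genes. The median log2 fold change (PAMH F3 over CNTR) was -0.14 for the mitochondrially and -0.05 for the nuclear encoded members, against 0.00 for all genes tested. Without surrogate variables these medians were -0.07 and -0.09. With surrogate variables 72 of the 96 members and 9078 of all 18779 genes had a log2 fold change below 0. At the adjusted threshold, DESeq2 with 2 surrogate variables called 102 of 33791 genes, mt-Nd6 among them. DESeq2 without surrogate variables called 8 of 33785 genes and no member. In edgeR without CNTR replicate 1, 39 of 19094 genes were called, Cox6a1 among them, and 0 when surrogate variables were also left out.

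Of the 15 members with an unadjusted p under 0.05, 13 were nuclear encoded, and CNTR replicate 2 was the highest library for all 13. Without CNTR replicate 2, 6 members were lower and 1 higher, beside 3.61% and 4.18% of the 19081 genes in that fit. Of the 6, 4 (mt-Nd5, mt-Nd6, Ndufb11 and Ndufc2) were among the 15. Without surrogate variables and without CNTR replicate 2 the count was 2 lower, mt-Nd1 and mt-Nd6, and 0 higher, beside 1.54% and 1.22% of all genes. The 7 mitochondrially encoded members had a negative log2 fold change with all libraries, and without CNTR replicate 1, the highest library for each of the 7, their median became 0.03. Leaving out CNTR replicate 1 raised the count of members that were lower at an unadjusted p under 0.05 to 32, beside 9.94% of all genes in that fit, and leaving out PAMH F3 replicate 2 brought it to 2, beside 1.98%.

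The smallest p belonged to mt-Nd6. Its level was 109, 62.9 and 58.9 CPM in CNTR replicates 1 to 3 and 54.8, 66.7, 47.8 and 58.1 CPM in PAMH F3. CNTR replicate 1 alone was high, and the other 2 CNTR libraries fell within the PAMH F3 range. The log2 fold change was -0.55 ± 0.13 (SE), with an unadjusted p of 0.0032 and an adjusted p of 0.511 by edgeR's quasi-likelihood test with Benjamini-Hochberg adjustment. DESeq2 with the same surrogate variables gave the same log2 fold change and an adjusted p of 0.0268. Without CNTR replicate 1 it was -0.11. The other subunits of complex I from mitochondrial DNA ran from -0.22 ± 0.09 for mt-Nd5 (unadjusted p 0.042) to -0.11 ± 0.09 for mt-Nd4. Cytochrome b was at 6899, 5658 and 6528 CPM in CNTR and at 6166, 6360, 5566 and 6190 CPM in PAMH F3, with overlapping groups and a log2 fold change of -0.12 ± 0.08. For mt-Co1 the log2 fold change was also -0.12 ± 0.08, and without CNTR replicate 1 it was -0.00066 for mt-Co1 and -0.00054 for mt-Cytb.

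Of the 89 nuclear encoded members, 29 were accessory subunits, 7 core subunits and 8 assembly factors of complex I. Complex I accounted for 7 of the 13 nuclear encoded members with an unadjusted p under 0.05. At this threshold 3.89% of all genes were lower and 3.75% higher. The 7 were the iron-sulfur subunit Ndufs7 of the core and the accessory subunits Ndufa1, Ndufa2, Ndufa6, Ndufa13, Ndufb11 and Ndufc2. Ndufa6 was at 71.1, 134 and 80.2 CPM in CNTR and at 58.9, 68.3, 84.0 and 62.9 CPM in PAMH F3. The log2 fold change of Ndufa6 was -0.25 ± 0.07 with an adjusted p of 0.531 by edgeR's quasi-likelihood test, and it was -0.14 without CNTR replicate 2 and -0.60 without CNTR replicate 1. Ndufc2 gave -0.30 ± 0.09, Ndufs7 -0.27 ± 0.08, Ndufa2 -0.22 ± 0.08, Ndufb11 -0.20 ± 0.07, Ndufa1 -0.16 ± 0.06 and Ndufa13, also known as GRIM-19, -0.15 ± 0.06. In none of these 7 were the groups apart. All 7 kept a negative value when any library was left out, but the size moved, from -0.91 to -0.12 for Ndufs7, -0.58 to -0.21 for Ndufc2, -0.51 to -0.14 for Ndufa2, -0.41 to -0.15 for Ndufb11, -0.26 to -0.12 for Ndufa1 and -0.48 to -0.07 for Ndufa13. The lowest value in each range was the one without CNTR replicate 1, and the highest was the one without CNTR replicate 2 for Ndufs7, Ndufa1 and Ndufa13, without PAMH F3 replicate 1 for Ndufa2 and Ndufb11 and without PAMH F3 replicate 2 for Ndufc2. Over the 29 accessory subunits tested, 6 were lower and 0 higher at an unadjusted p under 0.05, with a median log2 fold change of -0.06, and beside the shares just given for all genes. Over the 7 nuclear core subunits 1 was lower and 0 higher, with a median of -0.03. Without surrogate variables 0 accessory and 0 nuclear core subunits were lower at this p, beside 2.84% of all genes.

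The groups were apart for 2 members, both complex I accessory subunits, 1 higher and 1 lower, counts no larger than the 1.85% and 2.4% of all genes would give. Ndufab1, the mitochondrial acyl carrier protein, was at 29.4, 27.6 and 27.4 CPM in CNTR and at 30.5, 33.5, 32.1 and 31.1 CPM in PAMH F3. Every PAMH F3 library was above every CNTR library, by a log2 fold change of 0.16 ± 0.07 (unadjusted p 0.056, adjusted p 0.665 by edgeR's quasi-likelihood test). Of the coding windows of Ndufab1, 99.8% are shared with other loci, and the part of the transcript that gave its unique reads was not examined. Ndufa9 was at 123, 122 and 120 CPM in CNTR and at 115, 119, 118 and 119 CPM in PAMH F3. There was no overlap here either, yet the log2 fold change was -0.05 ± 0.05.

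Complex II, the sole complex without a mitochondrially encoded subunit, had summed levels that overlapped between the groups. Its 4 genes summed to 861, 849 and 847 CPM in CNTR and to 830, 848, 873 and 871 CPM in PAMH F3, or 852 ± 7.49 (SD, n = 3) against 856 ± 20.6 (SD, n = 4). CNTR replicate 2 lay within the other libraries here, whereas it was the highest library in the summed nuclear encoded subunits of complexes III, IV and V and in the core and accessory subunits of complex I. Sdha was at 452, 403 and 437 CPM in CNTR and at 450, 434, 441 and 469 CPM in PAMH F3, the one Sdh gene that was lowest in CNTR replicate 2. Sdhb, the iron-sulfur subunit, was at 116, 152 and 133 CPM in CNTR and 107 to 129 CPM in PAMH F3. The membrane anchors Sdhc and Sdhd ranged from 108 to 121 CPM and from 165 to 185 CPM over the 7 libraries. No Sdh gene had an unadjusted p under 0.05.

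In complex III, 3 of the 9 genes tested had an unadjusted p under 0.05, all lower in PAMH F3, namely Uqcrq (-0.37 ± 0.13), Uqcr10 and Uqcr11, and the median over the 9, mt-Cytb included, was -0.10. The share of all genes that were lower at this p was 3.89%, against which the counts of complexes III, IV and V are to be read. Uqcr10 and Uqcr11 are further small subunits of the complex. The log2 fold change of Uqcrq was -0.17 without CNTR replicate 2 and -1.12 without CNTR replicate 1. In complex IV the count was 2 of 13, Cox6a1 and Ndufa4, a subunit first assigned to complex I. Cox6a1 was at 63.3, 149 and 74.1 CPM in CNTR and at 55.5, 63.1, 76.4 and 58.3 CPM in PAMH F3, and its log2 fold change of -0.27 ± 0.09 became -0.10 without CNTR replicate 2. Without CNTR replicate 1 it was -0.74, with an adjusted p of 0.0427 by edgeR's quasi-likelihood test, in a fit that called 39 of 19094 genes. In complex V, 1 of 16 was lower, close to the share over all genes. This was Atp5j, coupling factor 6 of the stalk, at 128, 168 and 135 CPM in CNTR and 113, 123, 129 and 117 CPM in PAMH F3, which gave a log2 fold change of -0.17 ± 0.05 (-0.32 without CNTR replicate 1). The summed nuclear members of complex V averaged 3758 ± 263 CPM (SD, n = 3) in CNTR, beside 3615 ± 193 (SD, n = 4) in the other group. For complex IV the sums were 1688 ± 269 and 1529 ± 144 CPM and for complex III 1113 ± 114 and 1007 ± 78.7 CPM, differences smaller than the CNTR spread.

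**Figure D4:**
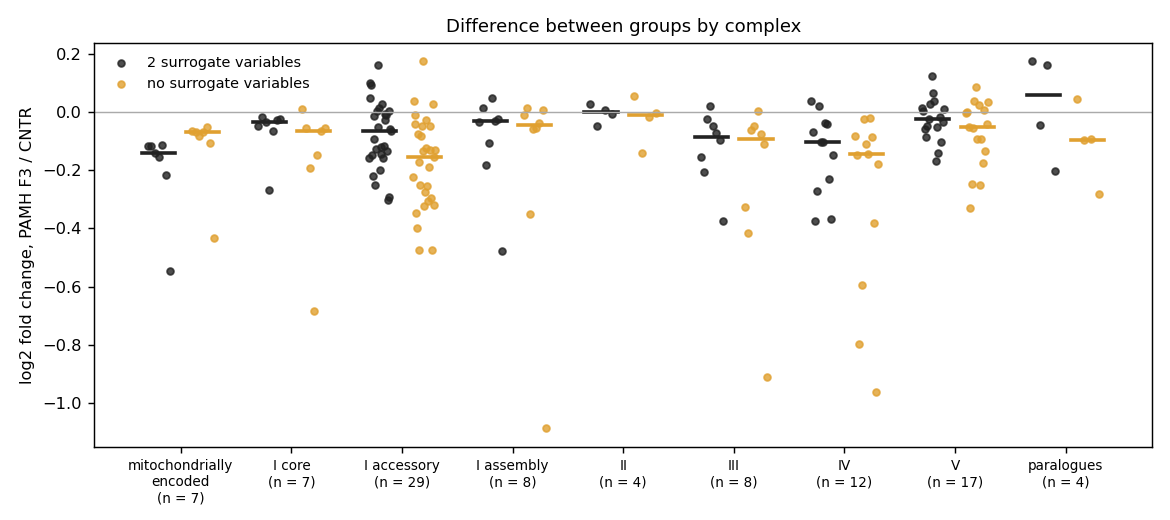
Log2 fold change (PAMH F3 over CNTR) of each of the 96 members by complex, with 2 surrogate variables in black and with none in orange, and bars for the medians. Coupling factor B is drawn with complex V. Most points lie within 0.5 of zero, mt-Nd6 is the lowest black point at -0.55, and without surrogate variables Ndufaf8 (-1.09), Cox8a (-0.96) and Uqcrq (-0.91) extend furthest down.

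**Figure D5:**
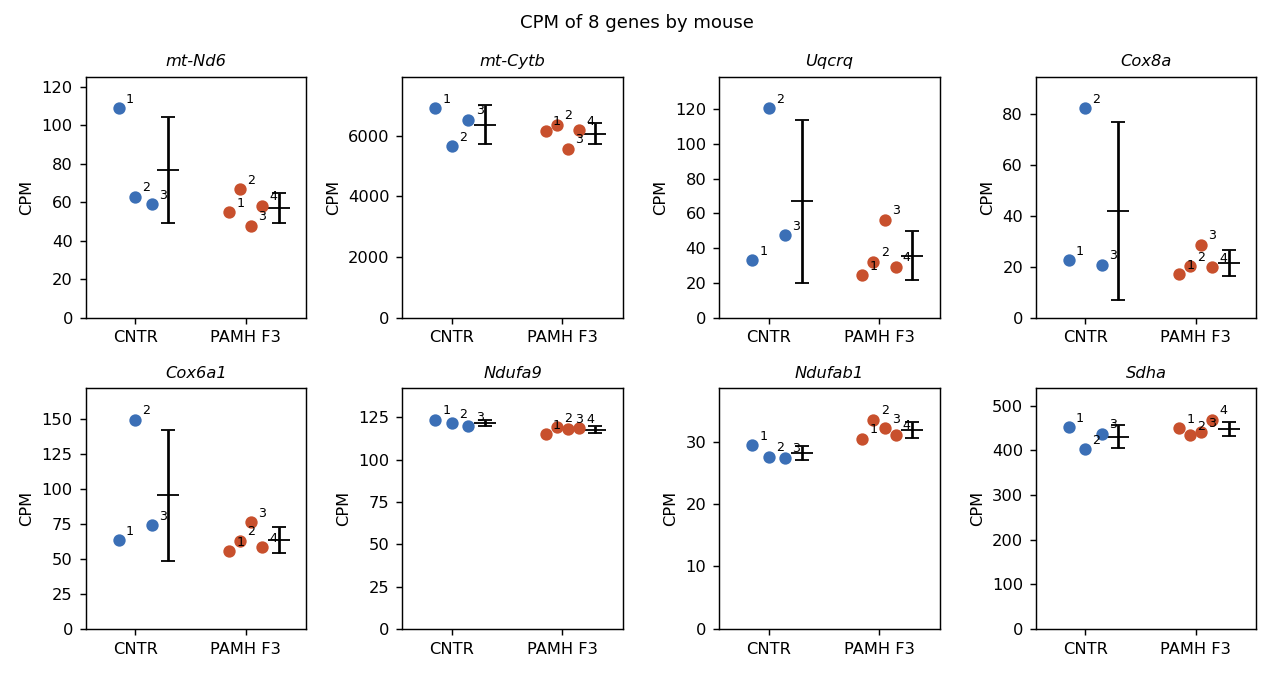
CPM of 8 genes in each library, numbered by replicate, with the mean ± SD of each group. CNTR replicate 1 alone is high for mt-Nd6 at 109 CPM, CNTR replicate 2 alone for Uqcrq at 120, Cox8a at 82.3 and Cox6a1 at 149, and the groups are apart for Ndufa9 and Ndufab1 only.

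Paralogues that replace a ubiquitous subunit in particular tissues were low in these ovaries. The testis form Cox6b2 was the highest at 30.0 CPM per kb, against 628 for Cox6b1. The muscle form Cox7a1 stood at 8.80, Cox4i2, the form of lung and of low oxygen, at 5.50 and Ndufa4l2, a gene induced in low oxygen, at 3.15 CPM per kb. Cox7b2 and Cox8c, both testis forms, had 0 to 2 and 0 to 3 counts in a library and the muscle form Cox6a2 had 5 to 15. Cox8b, the form of muscle and brown fat, was at 1.08, 0.390 and 0.248 CPM in CNTR and at 0.227, 0.120, 0.921 and 0.188 CPM in PAMH F3. The highest libraries were CNTR replicate 1 and PAMH F3 replicate 3. The summed level of the 5 adipocyte markers (Adipoq, Plin1, Cidec, Lep and Ucp1) was also highest in these 2 libraries, at 345 and 249 CPM beside 52.0 to 199 CPM in the other 5. Ucp1, the marker of brown fat, was at 0 in CNTR replicate 1 and PAMH F3 replicate 3 and at most 0.0900 CPM. Striated muscle markers summed to 1.88 to 3.54 CPM over 6 genes. The part of adherent fat in the level of Cox8b was not tested. The 3 members just inside the minimum of 10 counts were Atp5g2, Ndufaf8 and Ndufa4l2, with lowest counts of 59, 71 and 77, and just outside it were Cox6a2, Cox8b and Cox8c, with lowest counts of 5, 4 and 0.

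Genes of the same pathway outside the rule were set beside the members. Of 33 electron carriers, assembly factors and regulators, 5 were lower and 0 higher at an unadjusted p under 0.05, beside 3.89% and 3.75% of all genes, and the median log2 fold change was 0.00. Atpif1, the inhibitor that stops ATP synthase from running in reverse, was at 190, 276 and 214 CPM in CNTR and at 173, 184, 186 and 168 CPM in PAMH F3, with no overlap and a log2 fold change of -0.23 ± 0.06 (-0.45 without CNTR replicate 1). The complex III assembly factor Uqcc2 gave -0.21 ± 0.06 (-0.54 without CNTR replicate 1), and the complex IV assembly factors Cox16 and Surf1 gave -0.66 ± 0.22 and -0.16 ± 0.06. Cox16 was low, at 1.03 to 2.49 CPM in a library, and its value ran from -0.92 without CNTR replicate 1 to -0.54 without CNTR replicate 2. Among 77 mitochondrial ribosomal proteins, 5 were lower and 0 higher and the median was -0.06, close to that of the nuclear encoded members. Mrpl42 gave -0.17 ± 0.06, or -0.11 without CNTR replicate 1. Mrps12 gave -0.30 ± 0.11, which was -0.95 without CNTR replicate 1, -0.12 without CNTR replicate 2 and -0.76 without surrogate variables. The 21 genes of mitochondrial DNA expression had a median of 0.01, with 1 lower, near the share over all genes, and the 9 nuclear regulators (Nrf1, Gabpa, Ppargc1a and others) had a median of -0.02, with 0 at an unadjusted p under 0.05 in edgeR's test and 0 at an adjusted p of 0.05. Of 9 oxidant defence and uncoupling genes, 2 were lower at an unadjusted p under 0.05, beside 3.89% of all genes. Gpx4, a glutathione peroxidase that removes lipid peroxides, had a log2 fold change of -0.31 ± 0.07. For Gpx4, as for Atpif1, every PAMH F3 library was below every CNTR library, as in 2.4% of all genes. The other was Gpx1 (-0.17 ± 0.07), named after its values were seen. Its groups overlapped, and it was 2.30 times as high in CNTR replicate 2 as in the mean of the other CNTR libraries. None of these lists had a gene with an adjusted p of 0.05 or less.

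Markers of the ovary were present in every library, with 2146 to 3244 CPM over 6 granulosa cell genes, 8258 to 11620 CPM over 5 theca and steroidogenic genes and 248 to 401 CPM over 6 oocyte genes. At an unadjusted p under 0.05, 2 of the 6 granulosa cell genes were lower in PAMH F3, Foxl2 (-0.25 ± 0.07) and Amh (-0.34 ± 0.13), as was 1 of 4 luteal genes, Prlr (-0.36 ± 0.13), beside 3.89% of all genes. The log2 fold change of the other granulosa cell genes was 0.17 (Nr5a2), 0.15 (Inha), 0.09 (Cyp19a1) and 0.00 (Fshr). Foxl2 and Amh were 1.42 and 1.39 times as high in CNTR replicate 2 as in the mean of the other CNTR libraries. The groups overlapped for Foxl2, Amh and Prlr. The median log2 fold change was 0.05 over the granulosa, -0.20 over the theca and steroidogenic, -0.13 over the luteal and -0.05 over the oocyte genes. Over the other marker lists it ran from -0.58 (adipocyte) to 0.02 (oviduct epithelium). Foxl2, Amh and Prlr were named after their values were seen. Oviduct epithelium markers summed to between 2697 and 6449 CPM and were highest in PAMH F3 replicate 3 and CNTR replicate 1. Their part in the members' levels was not tested.

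The promoters of the nuclear encoded members were searched for short motifs of 3 factors known to bind near respiratory genes. RefSeq promoters (GRCm38.p6, 250 bases before to 50 after the start) were matched for 74 of the 89. On either strand, the letters GCGCATGC of NRF1 were found for 12 (16.2%, beside 3.94% of 17492 protein-coding genes), AAGATGGC of YY1 for 11 (14.9% beside 3.57%) and CCGGAAGT of the ETS family for 5 (6.76% beside 5.69%). The shares for NRF1 and YY1 were above those over all genes, and the share for the ETS family was close to it. These are matches of letters, without evidence of binding.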

How the data were processed

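The authors deposited raw read counts per gene for each ovarian library, made from 50-base single reads of stranded poly(A) libraries. Per the labels and the study's methods, reads were demultiplexed with bcl2fastq 2.17.1.14, aligned to mm10 with STAR 2.5.3a, and uniquely aligned reads were counted with HTSeq 0.6.1p1 in union mode. Rows that name no gene were left out of library sizes: reads without a feature were 9.81% to 11.8% and ambiguous reads 1.23% to 1.43% of unique reads.

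Counts were scaled by TMM over all gene rows. Genes passing filterByExpr (minimum count 10) were tested with edgeR 4.0.16 (quasi-likelihood F test, Benjamini-Hochberg adjustment, R 4.3.3) with 2 surrogate variables from sva 3.50.0, which left 3 residual degrees of freedom. DESeq2 1.42.0, other scalings, filters and numbers of surrogate variables, a GC and length offset and leaving out each library were alternatives. The fit was tested on simulated data. No pair of libraries held identical values. Shared sequence was counted as 50-base windows found in another annotated GENCODE M21 transcript.

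The members and gene lists were chosen with earlier results of these data known. Named were all mitochondrially encoded members, the Sdh genes, the 5 nuclear members highest per kb, the 10 with the smallest p, up to 5 without overlap, the paralogues, the 3 nearest to either side of the count minimum, and up to 8 pathway genes outside the rule with an unadjusted p under 0.05.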

Additional observations from a re-analysis of the deposited data

Results flagged for a closer look

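Among the 46 sets of 4 PAMH F3 values examined for a library far from its group, of which chance gives about 1 in 20, 3 had such a library. Sdhc, a membrane anchor of complex II, was at 121 CPM in PAMH F3 replicate 3 and at 108 to 110 CPM in the other 3 libraries. Cox7a1, the muscle form of a cytochrome c oxidase subunit, was at 2.64 CPM in PAMH F3 replicate 1 and at 4.05 to 4.28 CPM in the others. Cox8b, the form of muscle and brown fat, was at 0.921 CPM in PAMH F3 replicate 3 and at 0.120 to 0.227 CPM in the others.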

How the results depend on the processing

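With 2 surrogate variables 15 members were lower and 0 higher in PAMH F3 at an unadjusted p under 0.05. The lower count, each beside the share of all genes in the same fit, was 3 without surrogate variables (2.84%), 6 with DESeq2 without them (1.82%), and 4, with 1 higher, with a GC content and length offset (2.8%). With both CNTR replicate 2 and PAMH F3 replicate 3 left out and no surrogate variables, a choice made after seeing the data, it was 3 (1.62%). With the replicate number as a block it was 0 (1.62%), and with the block and the GC offset 2 (1.88%), with 1 higher. Deviations of same-numbered libraries correlated at 0.0957, 0.0965 and -0.248, and those of differently numbered libraries at -0.235 to 0.277. Whether a number marks a shared batch was not tested. Members lower at an adjusted p of 0.05 numbered 1 with DESeq2 and 2 surrogate variables (mt-Nd6), a fit that called 102 of 33791 genes.

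Leaving out 1 library in turn, the lower count ranged from 2 to 32 and the higher from 0 to 2, the adjusted lower count from 0 to 1 and the mitochondrial median from -0.21 to 0.03. Without surrogate variables the lower count ranged from 0 to 20. Single genes that changed sign ranged from -0.21 to 0.026 (mt-Nd1), -0.23 to 0.044 (mt-Nd2), -0.19 to 0.054 (mt-Nd4), -0.29 to 0.027 (mt-Nd5) and -0.18 to 0.0041 (Mrpl50). Without CNTR replicate 1 and surrogate variables these were 0.00053, 0.026, 0.030, 0.021 and 0.0096, and likewise without CNTR replicate 3 mt-Nd4 was 0.014. Of 783 values over 27 named genes, 770 kept direction and side of the threshold, 11 changed sign and 2 crossed it. The cause was not tested. With 3 and 4 libraries and 3 residual degrees of freedom, small differences may go undetected, and 6 mitochondrial genes could not be measured.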
